A study of Mus musculus with 18 samples.

Results

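The genes described here supply T cells with amino acids: the stress factor Atf4 and genes it is known to act on, amino acid transporters of the plasma membrane, the enzymes of serine synthesis and folate one-carbon metabolism, enzymes that make proline or exchange amino groups, and the cytosolic enzymes that load amino acids on to tRNA. Of 42 genes listed by symbol, all were in the table of 15402 genes, and the 41 whose log2 values averaged 3 or more over the 18 libraries were the members tested. The remaining one, Chac1, a glutathione-degrading enzyme and known Atf4 target, lay between 0.39 and 0.47 in the 18 libraries and was not tested. No member was chosen by a threshold on its fold change.

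RNA-seq was performed on 6 populations of CD4+ T cells, with 3 libraries each, from female C57/BL6 Foxp3Timer Foxp3-IRES-GFP mice (Foxp3-Tocky mice). In this strain regulatory sequences of Foxp3 drive a fluorescent Timer protein that is blue when new and turns red as it matures, so all 6 populations carried both the Timer and the GFP reporter, and all came from treated animals. The mice were sensitised with 3% oxazolone, a contact allergen, on the skin of the abdomen, and the draining inguinal and axillary lymph nodes were taken 5 days later. The study's methods give an age of 5 to 10 weeks at sensitisation, and each replicate was a pool of 3 mice. Tnaive were CD44lo GFP- Timer- cells and Teff were CD44hi GFP- Timer- cells. The other 4 populations were GFP+ and were separated by Timer fluorescence alone: Pers1 (labelled de novo Foxp3 expressers) and Pers2 (labelled maturing) had blue Timer, which the study terms persistent Foxp3 transcription, whereas PAt (labelled mature) and Arrested (labelled decaying) had mostly or only red Timer. The gates mark when Foxp3 was transcribed and were not set on any member. Pers1 and Pers2 are together called persistent below.

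Amino acid shortage and other stresses lead eIF2 alpha kinases to slow general translation while translation of Atf4 mRNA increases, so Atf4 activity is controlled in large part at the protein level and is not read from its mRNA alone. Atf4 protein binds CARE sequences (composite sites read by Atf4 with a C/EBP partner) in genes for amino acid synthesis, transport and tRNA charging. Activated T cells are known to take up more amino acids through Slc7a5 and its partner Slc3a2, and to depend on serine for one-carbon units used in nucleotide synthesis.

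Because Atf4 is known to act through CARE letters near the start sites of its targets, those letters were searched in the RefSeq promoters (GRCm38.p6, the mm10 assembly, from 250 bases before to 50 bases after the start site). The motif TGATGNAA was searched on both strands, and 32 of the 42 listed genes had a promoter in the table. It occurred in 11 of these 32 (34.4%), compared with 2.91% of the 9938 tested genes that had a promoter and 4.51% of all 27025 genes of the promoter table. Members were listed in part as known Atf4 targets, so a higher share follows in part from that choice. The match was in 5 of 7 promoters of cytosolic tRNA synthetases (Aars, Gars, Iars, Tars and Yars) and in 3 of 7 of the Atf4 and stress genes (Asns, Chac1 and Trib3), but in none of the 8 promoters of serine and one-carbon enzymes. The E-box CACGTG, the letters bound by Myc and related factors, was found in 4 of the 32 promoters (12.5%), near the 11.5% of tested genes, and overlapped none of the CARE matches. A match describes these letters in this window and is neither a binding site nor a cause. The sequences below run 5′ to 3′ on the strand of the gene with the CARE match in capitals and its position counted from the start site (1 is the first transcribed base, -1 the base before it), and are shown because the genes that carry them did not move alike between the populations.
Asns (chr6:7693214-7693243, minus strand, match at -23 to -16): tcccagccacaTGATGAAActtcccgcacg
Trib3 (chr2:152344028-152344057, minus strand, match at 15 to 22): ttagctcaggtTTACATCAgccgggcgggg
Chac1 (chr2:119351038-119351067, plus strand, match at -193 to -186): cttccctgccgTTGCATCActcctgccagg
Got1 (chr19:43524689-43524718, minus strand, match at -102 to -95): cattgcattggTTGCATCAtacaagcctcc
Gars (chr6:55037960-55037989, plus strand, match at -30 to -23): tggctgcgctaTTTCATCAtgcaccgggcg
Tars (chr15:11399655-11399684, minus strand, match at -15 to -8): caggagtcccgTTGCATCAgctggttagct

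The values are log2 normalised read counts as deposited, and a fold change is a difference between means on that log2 scale. One limma model covered all 18 libraries and 13190 genes, with Benjamini-Hochberg adjustment over those genes. A gene passed the test when its adjusted p was under 0.05, and was called when its log2 fold change was also over 1 or under -1. Read depth is unknown. The standard error of a fold change comes from the limma model. Its variance for each gene was pooled over all populations and drawn towards a trend across genes. It is therefore not the spread within the populations compared alone. An SD describes how far the 3 libraries of a population differ. Levels of different genes are not compared, since the values are not per length. In bulk samples, fewer cells that express a gene and less RNA per cell cannot be told apart.

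The sorted cells were T cells by their markers, but not equally free of other cells. Cd3e, Cd3d, Cd4 and Lck were between 13.5 and 15.7 in every library. The summed level of 5 dendritic cell genes was 10.6 to 11.3 in the Teff libraries and 6.4 to 6.9 in all others. Siglech (10.2 to 10.9 in Teff), Flt3 and Clec9a were highest in Teff without overlap. Xcr1 and Zbtb46 in Teff overlapped the persistent libraries and PAt and Arrested. The summed level of 5 B cell genes was 9.5 to 9.9 in Tnaive, 10.5 to 10.7 in the persistent libraries and 11.2 to 12.2 in PAt, Arrested and Teff. The summed levels of 2 CD8 T cell markers (11.5 to 12.0 against 9.6 to 10.7) and 3 NK cell markers (8.1 to 8.2 against 5.3 to 6.8) were also highest in Teff. The sum of 5 macrophage genes was 10.3 to 10.6 in Teff, 9.4 to 9.6 in Pers1 and 7.9 to 8.8 elsewhere, and Cd14 stayed between 0.45 and 0.60. Of these genes, Itgam was 8.12 to 8.95 in the persistent libraries and 6.17 to 6.74 in PAt and Arrested. Lyz2, Csf1r and Adgre1 overlapped between the persistent libraries and PAt and Arrested. The sum of 6 cell cycle genes was 15.8 to 16.0 in the persistent libraries, 13.7 to 13.9 in PAt and Arrested, 14.2 to 14.3 in Teff and 13.1 to 13.2 in Tnaive. It was highest in the same libraries as many members below, and the part of cell cycle and of other cells in the member results was not tested.

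**Figure D1:**
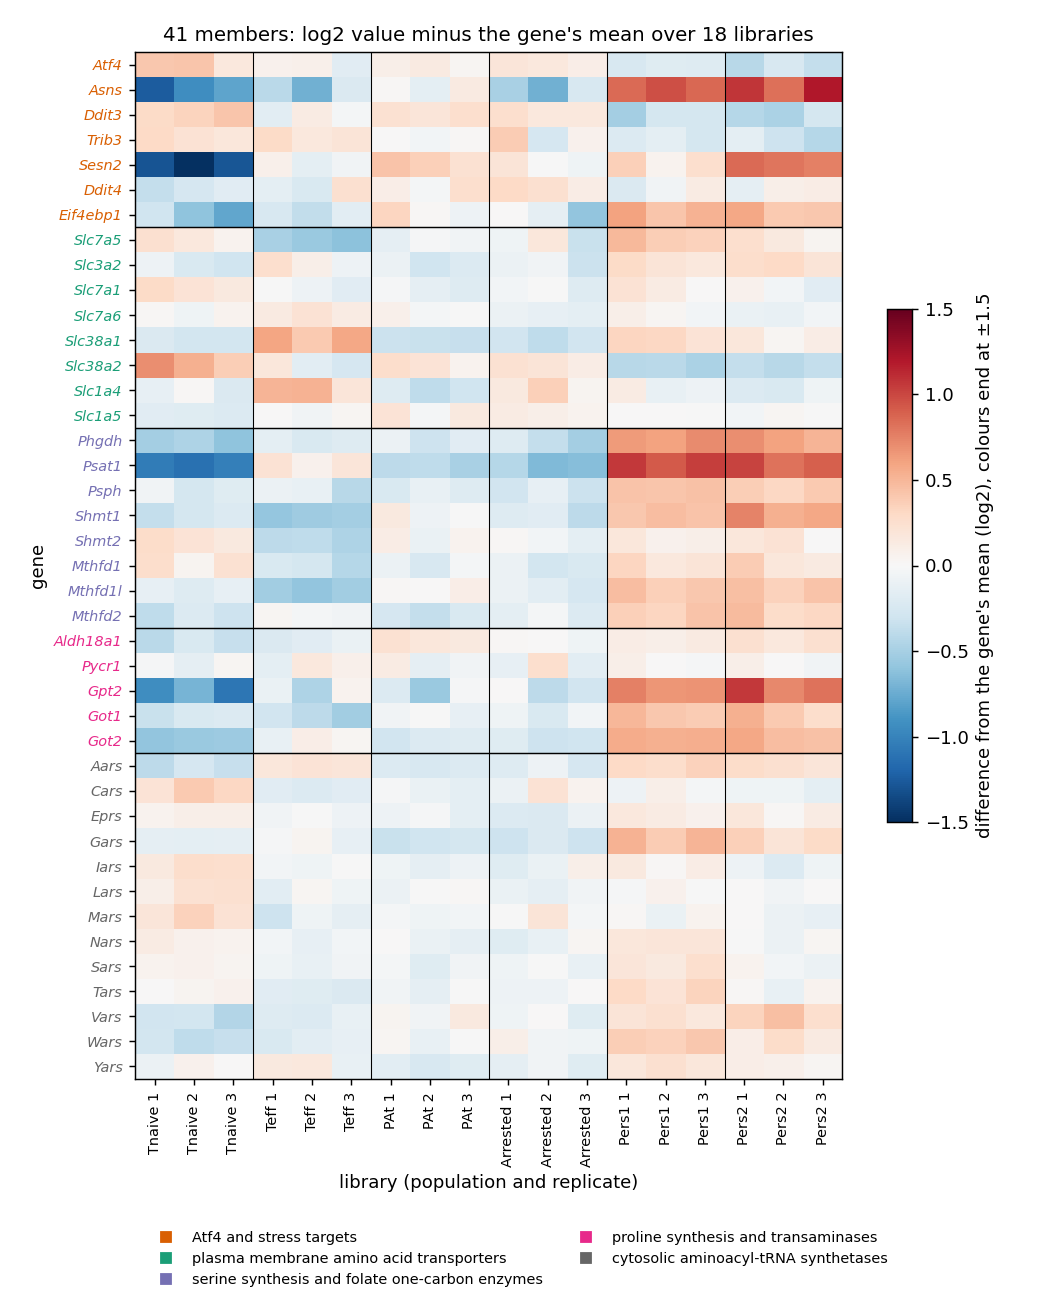
Log2 normalised value of each of the 41 members minus that gene's mean over the 18 libraries, with 1 row per gene (grouped and coloured by role) and 1 column per library. The Pers1 and Pers2 columns are red for most serine and one-carbon enzymes, Asns, Gpt2 and Gars, and blue for Atf4, Ddit3 and Slc38a2.

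Persistent populations were compared with PAt and Arrested to learn which members accompany sustained Foxp3 transcription. Enzymes that make serine, asparagine, alanine and aspartate were higher in the persistent cells, whereas the mRNA of Atf4 and of its stress targets Ddit3 and Trib3 was lower. The libraries overlapped for Trib3. Of the other Atf4 and stress genes, Ddit4 was also lower, but Sesn2 and Eif4ebp1 were higher, as was Asns. Asns, Psat1 and Gpt2 were called higher, at 2.30, 2.74 and 2.03 times the level in PAt and Arrested. That is 3 of 41 members, beside 4.74% of all tested genes called higher, and no member was called lower, beside 2.77% of all genes. With any fold, 27 members were higher and 6 lower, beside 35.9% and 35.1% of all genes. The median log2 fold change of the members was 0.29, that of all tested genes was -0.01, and the libraries of the 2 sides did not overlap for 20 members that were higher and 3 that were lower, beside 24% and 21.8% of all genes. Pers1 or Pers2 had the highest mean of the 6 populations for 25 of the 41 members. The same count was not made over all tested genes, so it is not read as a trait of the members.

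Tnaive and Teff, which lack the Timer, were compared to see how the members differ between naive and activated cells that do not express Foxp3. Sesn2 and Psat1 were called higher in Teff, at 2.50 and 2.33 times the Tnaive level, which is 2 of 41 members beside 8.88% of all genes. No member was called lower, beside 2.28% of all genes. With any fold, 16 members were higher and 17 lower, beside 31.3% and 27.7% of all genes, and the median log2 fold change was 0.07 (0.00 for all tested genes). Of the 41 members, 12 (29.3%) were higher in both comparisons, beside 19.7% of all tested genes. Lower in both were 3 members (Atf4, Ddit3 and Slc38a2, 7.32%), beside 18.7% of all tested genes. A further 10 were higher in persistent cells but lower in Teff. That last pattern held for 24.4% of the members and for 3.19% of all tested genes, and the 10 members were Shmt1, Shmt2, Mthfd1, Mthfd1l, Slc7a5, Slc7a1, Eprs, Nars, Sars and Tars. Shmt2 and Slc7a1 left it when libraries were shifted to a common median or quantile-normalised, since they no longer passed the test in persistent cells. The 2 comparisons share no library.

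**Figure D2:**
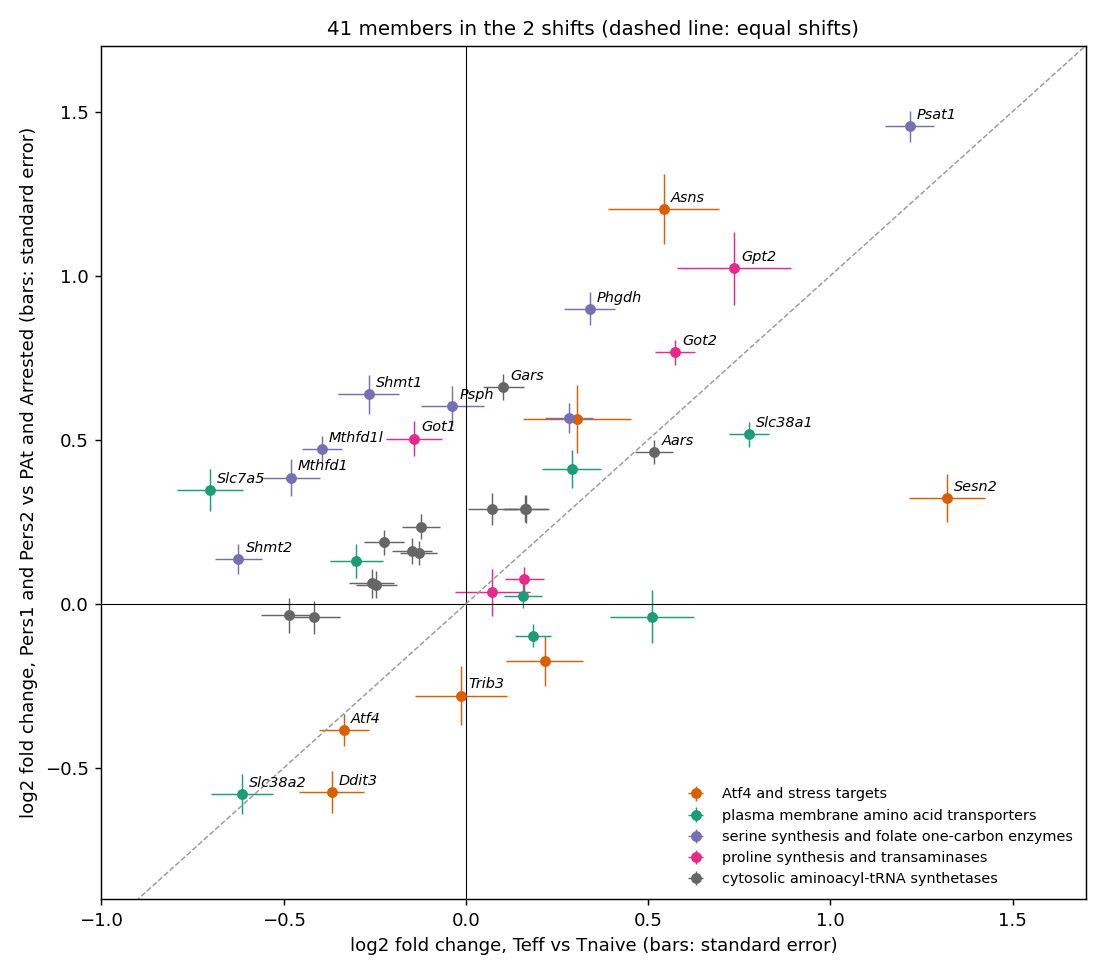
Log2 fold change of the 41 members in persistent cells relative to PAt and Arrested (vertical) against that in Teff relative to Tnaive (horizontal), with standard errors, coloured by role. Psat1 is at the upper right in both, Atf4, Ddit3 and Slc38a2 are negative in both, and Slc7a5, Shmt1, Shmt2, Mthfd1 and Mthfd1l are positive on the vertical axis and negative on the horizontal one.

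Atf4 (chr15:80255184-80257541, plus strand), the transcription factor of the amino acid response, had its highest mRNA in naive cells and its lowest in persistent cells. Its log2 values were 13.59, 13.60 and 13.34 in Tnaive, 13.25, 13.27 and 13.02 in Teff, 13.27, 13.32 and 13.21 in PAt, 13.36, 13.34 and 13.29 in Arrested, 12.95, 13.01 and 12.99 in Pers1 and 12.77, 12.94 and 12.83 in Pers2. All 6 persistent values were below the 12 others, and Teff was below Tnaive without overlap. The log2 fold change was -0.38 ± 0.05 (SE, adjusted p = 5.3e-07) for persistent against PAt and Arrested, and -0.33 ± 0.07 (adjusted p = 0.00031) for Teff against Tnaive. PAt and Arrested did not pass the test against Teff (0.12 ± 0.06, adjusted p = 0.091).

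Ddit3 (Chop), a stress factor linked to cell death, was likewise highest in Tnaive and lowest in persistent cells. Its means were 9.70 ± 0.06 (SD, n = 3) in Tnaive, 9.33 ± 0.14 in Teff, 9.58 ± 0.04 in PAt, 9.55 ± 0.05 in Arrested, 9.01 ± 0.14 in Pers1 and 8.97 ± 0.11 in Pers2. It was lower in persistent cells than in PAt and Arrested by a log2 fold change of -0.57 ± 0.06 (adjusted p = 5.8e-08), without overlap. Ddit3 shares 68 bases with Mars on the opposite strand, and the sources do not say whether reads were counted by strand. Trib3, a pseudokinase that is known to restrain Atf4, was lower by less (-0.28 ± 0.09, adjusted p = 0.0088), and its 3 Arrested values (6.81, 6.17 and 6.49) spanned most of the range of the other populations. Trib3 was also lower in persistent cells than in Teff (-0.46 ± 0.11, adjusted p = 0.0011). Ddit4, an mTORC1 inhibitor, was lower by -0.17 ± 0.08 (adjusted p = 0.044), with overlapping libraries.

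Asns (chr6:7675169-7693254, minus strand), which makes asparagine and is a classical Atf4 target, moved against Atf4 mRNA. Its log2 values were 4.94, 5.25 and 5.40 in Tnaive, 5.78, 5.46 and 5.98 in Teff, 6.20, 6.05 and 6.32 in PAt, 5.70, 5.47 and 5.95 in Arrested, 7.04, 7.15 and 7.05 in Pers1 and 7.26, 7.02 and 7.39 in Pers2. The 6 persistent values were above all others and Teff was above Tnaive without overlap. The log2 fold change was 1.20 ± 0.11 (adjusted p = 2.5e-09) against PAt and Arrested and 1.41 ± 0.13 (adjusted p = 8.3e-09) against Teff, and 0.54 ± 0.15 (adjusted p = 0.0043) for Teff against Tnaive, which was 0.19 (adjusted p = 0.28) after quantile normalization. Asns, Trib3 and Chac1 all carry the CARE letters printed above, and of these Asns was higher, Trib3 lower and Chac1 near 0 in every library.

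Sesn2, a leucine-binding inhibitor of mTORC1, separated naive cells from all the others. Its log2 values were 7.24, 7.04 and 7.26 in Tnaive, 8.62, 8.39 and 8.48 in Teff, 8.97, 8.90 and 8.78 in PAt, 8.73, 8.54 and 8.48 in Arrested, 8.90, 8.60 and 8.79 in Pers1 and 9.39, 9.35 and 9.30 in Pers2. Tnaive lay more than 1 log2 unit below every other library, and Pers2 lay above every other library. Sesn2 was called higher in Teff than in Tnaive (1.32 ± 0.10, adjusted p = 4.9e-10, with 0.97 after quantile normalization and so under the limit for a call), and in PAt and Arrested than in Tnaive (1.55 ± 0.09, adjusted p = 3.8e-12), but differed by only 0.32 ± 0.07 (adjusted p = 0.00054) between persistent cells and PAt and Arrested. Eif4ebp1, a repressor of cap-dependent translation, was higher in persistent cells by 0.56 ± 0.10 (adjusted p = 6.6e-05) without overlap, and its Teff and Tnaive values overlapped (0.30 ± 0.15, adjusted p = 0.084). Of the 7 tested Atf4 and stress genes, 3 were thus higher and 4 lower in persistent cells, and 2 were higher and 2 lower in Teff.

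**Figure D3:**
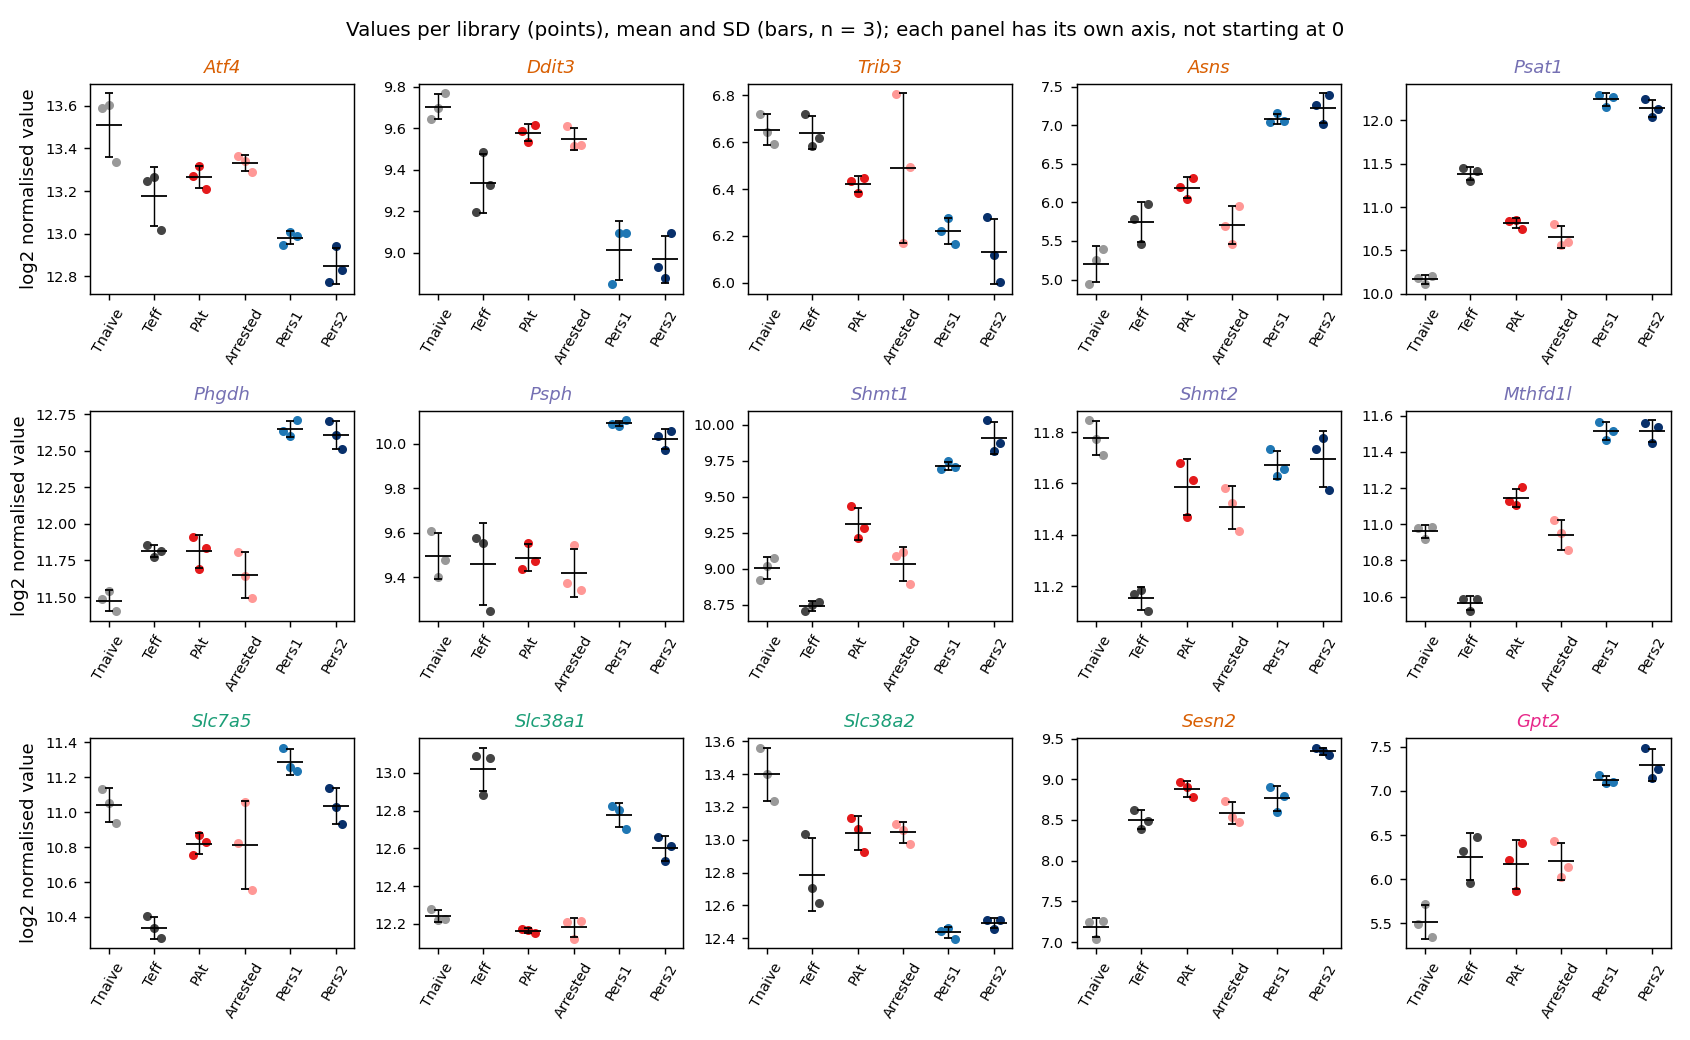
Log2 normalised values of 15 members in each library (points), with the mean and SD of the 3 replicates (black), for the 6 populations. The axes differ between panels and do not start at 0. Asns, Psat1, Phgdh, Psph, Shmt1, Mthfd1l and Gpt2 have all Pers1 and Pers2 points above the other 4 populations, and Atf4, Ddit3 and Slc38a2 have all of them below.

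The serine and one-carbon enzymes were the one role group in which every member was higher in persistent cells, except that Shmt2 did not pass after either other scaling (adjusted p = 0.17 and 0.13). All 8 passed the test on the deposited values, with a median log2 fold change of 0.59. Of these, 7 had no overlap with PAt and Arrested, beside 24% of all tested genes. Against Teff all 8 were higher without overlap, beside 24.9% of all tested genes, with a median of 0.70. In Teff against Tnaive the group divided, with 3 higher (Psat1, Phgdh and Mthfd2), 4 lower (Shmt1, Shmt2, Mthfd1 and Mthfd1l) and 1 that did not pass the test (Psph).

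Phgdh, Psat1 and Psph carry out the consecutive steps from the glycolytic intermediate 3-phosphoglycerate to serine. Psat1 (chr19:15904678-15947337, minus strand), the aminotransferase, had log2 values of 10.18, 10.11 and 10.21 in Tnaive, 11.44, 11.30 and 11.41 in Teff, 10.84, 10.85 and 10.75 in PAt, 10.81, 10.57 and 10.59 in Arrested, 12.29, 12.16 and 12.27 in Pers1 and 12.24, 12.04 and 12.13 in Pers2. The order was Tnaive, then PAt and Arrested, then Teff, then the persistent cells, with no overlap between these steps. The log2 fold change was 1.45 ± 0.05 (adjusted p = 2.7e-16) against PAt and Arrested, 0.81 ± 0.06 (adjusted p = 1.7e-10) against Teff, and 1.22 ± 0.07 (adjusted p = 1.7e-12) for Teff against Tnaive. PAt and Arrested did not differ from each other by the test (-0.16 ± 0.07, adjusted p = 0.21).

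Phgdh, the entry enzyme, had means of 12.65 ± 0.05 in Pers1 and 12.61 ± 0.09 in Pers2, compared with 11.48 ± 0.07 in Tnaive and 11.65 to 11.81 in Teff, PAt and Arrested. Its log2 fold change against PAt and Arrested was 0.90 ± 0.05 (adjusted p = 1.3e-12), just under the limit for a call. Psph, the phosphatase that releases serine, had means of 10.09 ± 0.01 in Pers1 and 10.02 ± 0.04 in Pers2 and of 9.42 to 9.50 in the other 4 populations. It was higher in persistent cells by 0.60 ± 0.06 (adjusted p = 1.6e-08) and did not pass the test between Teff and Tnaive (-0.04 ± 0.09, adjusted p = 0.73). The 3 enzymes were thus all higher in persistent cells but did not share their step from Tnaive to Teff.

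Shmt1 and Shmt2 convert serine to glycine and hand its carbon to folate, in the cytosol and in mitochondria. Shmt1 (chr11:60788104-60811718, minus strand) had means of 9.01 ± 0.08 in Tnaive, 8.74 ± 0.03 in Teff, 9.31 ± 0.11 in PAt, 9.03 ± 0.12 in Arrested, 9.72 ± 0.03 in Pers1 and 9.91 ± 0.11 in Pers2. It was called higher in persistent cells than in Teff (1.07 ± 0.07, adjusted p = 5.5e-11), and was 0.64 ± 0.06 (adjusted p = 4.7e-09) above PAt and Arrested. Shmt2 was highest in Tnaive (11.78 ± 0.07) and lowest in Teff (11.15 ± 0.05), a log2 fold change of -0.62 ± 0.06 (adjusted p = 4.2e-08), and was only 0.14 ± 0.05 (adjusted p = 0.012) higher in persistent cells than in PAt and Arrested, with overlapping libraries. Shmt1 overlaps Smcr8 by 184 bases, and Shmt2 overlaps Ndufa4l2 by 32 bases, both on the opposite strand.

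The folate enzymes that pass this carbon on were all higher in persistent cells but split in Teff. Mitochondrial Mthfd2 was higher in persistent cells (0.57 ± 0.05, adjusted p = 5.8e-10) and in Teff (0.28 ± 0.07, adjusted p = 0.00085). Mthfd1l, which releases formate from mitochondria, was higher in persistent cells (0.47 ± 0.04, adjusted p = 6.7e-10) and lower in Teff than in Tnaive (-0.40 ± 0.05, adjusted p = 2.6e-06). Its Teff values were 10.59, 10.52 and 10.59, below every other library, and its Pers1 and Pers2 values were 11.45 to 11.57, above every other. Cytosolic Mthfd1 gave 0.38 ± 0.06 (adjusted p = 4.3e-06) and -0.48 ± 0.08 (adjusted p = 3.1e-05) in the same 2 comparisons. Among 18 further folate, methionine and glycine genes, 7 were higher and 5 lower in persistent cells, with a median of 0.01, and 5 were higher and 8 lower in Teff. Ahcy, of the methionine cycle, was called higher in persistent cells (1.45 ± 0.05, adjusted p = 1.8e-15).

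Gpt2, the mitochondrial alanine aminotransferase, was the third member called in persistent cells. Its log2 values were 5.49, 5.72 and 5.34 in Tnaive, 6.32, 5.96 and 6.48 in Teff, 6.22, 5.87 and 6.41 in PAt, 6.43, 6.03 and 6.14 in Arrested, 7.18, 7.09 and 7.10 in Pers1 and 7.49, 7.14 and 7.24 in Pers2. The persistent values were above all others, and Teff, PAt and Arrested overlapped. The log2 fold change of 1.02 ± 0.11 (adjusted p = 4.7e-08) was at the limit for a call and fell to 0.95 without PAt replicate 2, 0.98 without Arrested replicate 2, 0.97 without Pers2 replicate 1 and 0.96 after the libraries were shifted to a common median.

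The aspartate aminotransferases Got2 (mitochondrial) and Got1 (cytosolic) were higher in persistent cells by 0.77 ± 0.04 (adjusted p = 3e-13) and 0.50 ± 0.05 (adjusted p = 4.6e-08), both without overlap. In Teff against Tnaive, Got2 was higher by 0.57 ± 0.06 (adjusted p = 1.3e-08), whereas Got1 gave -0.14 ± 0.08 (adjusted p = 0.12, and 0.016 after a shift to a common median). The proline enzymes differed from these. Aldh18a1, which makes the proline precursor, was at 11.84 ± 0.04 in PAt and 11.87 ± 0.05 in Pers2, and the comparison of persistent cells with PAt and Arrested missed the threshold (0.08 ± 0.04, adjusted p = 0.07). Pycr1, the last enzyme of proline synthesis, lay between 2.94 and 3.35 in all libraries, close to the limit of 3 for testing, and passed no test.

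The plasma membrane transporters moved in both directions in each comparison, with 4 higher and 2 lower of 8 in persistent cells, 5 higher and 3 lower in Teff, and none called. After a shift to a common median 3 were higher and 3 lower in Teff, since Slc1a5 and Slc7a6 no longer passed. Slc7a5, the light chain of the large neutral amino acid exchanger, had log2 values of 11.13, 11.05 and 10.94 in Tnaive, 10.40, 10.33 and 10.28 in Teff, 10.75, 10.87 and 10.83 in PAt, 10.82, 11.06 and 10.55 in Arrested, 11.37, 11.26 and 11.24 in Pers1 and 11.14, 11.03 and 10.93 in Pers2. Teff was below every other library, Pers1 was above every other library, and Pers2 overlapped Tnaive and Arrested. It was higher in persistent cells than in PAt and Arrested (0.35 ± 0.06, adjusted p = 6.8e-05) and lower in Teff than in Tnaive (-0.70 ± 0.09, adjusted p = 1.1e-06). Slc7a5 lies within an annotated gene on the opposite strand, and without strand the reads of the 2 could not be told apart.

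Slc3a2, the heavy chain that carries Slc7a5 to the membrane, did not share that loss in Teff. It was higher in both comparisons, by 0.41 ± 0.06 (adjusted p = 1.7e-06) and 0.29 ± 0.08 (adjusted p = 0.0041). The arginine and lysine transporter Slc7a1 was highest in Tnaive (11.79 ± 0.07) and lower in Teff (-0.30 ± 0.07, adjusted p = 0.0013), and was 0.13 ± 0.05 (adjusted p = 0.028) higher in persistent cells, which did not pass after a shift to a common median (adjusted p = 0.27). Slc7a6, which also carries cationic and neutral amino acids with Slc3a2, was higher in Teff by 0.16 ± 0.05 (adjusted p = 0.012, and 0.23 after a shift to a common median).

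The related glutamine transporters Slc38a1 and Slc38a2 moved in opposite directions. Slc38a1 had means of 13.02 ± 0.12 in Teff, 12.78 ± 0.07 in Pers1, 12.60 ± 0.07 in Pers2 and 12.17 to 12.24 in Tnaive, PAt and Arrested. It was higher in persistent cells (0.52 ± 0.04, adjusted p = 1.6e-10) and in Teff (0.78 ± 0.05, adjusted p = 8.5e-11). Slc38a2, a known target of the amino acid response, had means of 13.40 ± 0.16 in Tnaive, 13.04 ± 0.11 in PAt, 13.04 ± 0.06 in Arrested, 12.79 ± 0.22 in Teff, 12.49 ± 0.03 in Pers2 and 12.44 ± 0.03 in Pers1. It was lower in persistent cells (-0.58 ± 0.06, adjusted p = 3e-08) and in Teff (-0.61 ± 0.09, adjusted p = 2.9e-06), so that it was highest in Tnaive and lowest in persistent cells as Atf4 was.

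Slc1a5 (ASCT2), another glutamine carrier, varied little, with means from 13.38 in Tnaive to 13.67 in PAt. It was 0.18 ± 0.05 (adjusted p = 0.0033, and 0.087 after a shift to a common median) higher in Teff and gave -0.10 ± 0.03 (adjusted p = 0.017) in persistent cells against PAt and Arrested. Slc1a4 (ASCT1), which carries serine and alanine, had its highest mean in Teff (5.60 ± 0.19), 0.51 ± 0.12 above Tnaive (adjusted p = 0.0007, and 0.21 after quantile normalization), and showed no difference past the test in persistent cells (-0.04 ± 0.08, adjusted p = 0.68). Of 14 further amino acid transporters, 8 were higher and 4 lower in persistent cells, with a median of 0.15, and 5 were higher and 2 lower in Teff. Slc43a1, a leucine-type transporter, was the single one called in these 2 comparisons, higher in Teff by 1.86 ± 0.12 (adjusted p = 1.4e-11). Slc7a10, a carrier of small neutral amino acids, was called in others, with means of 4.68 in Tnaive, 4.95 in Teff, 6.49 in PAt, 6.65 in Arrested, 6.08 in Pers1 and 7.51 in Pers2. It was 1.85 ± 0.12 (adjusted p = 2.5e-11) higher in persistent cells than in Teff and 1.43 ± 0.14 (adjusted p = 1.4e-06) higher in Pers2 than in Pers1.

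The cytosolic tRNA synthetases rose by small amounts in persistent cells, with 9 of 13 higher, 0 lower and 4 that did not pass the test (Cars, Iars, Lars and Mars), and a median log2 fold change of 0.19, which was 0.12 after a shift to a common median or quantile normalization. Gars, for glycine, had the largest difference of these 13: its means were 12.11 ± 0.08 in Pers1 and 11.92 ± 0.08 in Pers2, and 11.35 to 11.61 in the others, a log2 fold change of 0.66 ± 0.04 (adjusted p = 3.4e-12). Aars, for alanine, was higher in persistent cells (0.46 ± 0.04, adjusted p = 5.2e-10) and in Teff (0.52 ± 0.05, adjusted p = 3.4e-08), so that Teff and the persistent cells were not separated by the test (0.08 ± 0.05, adjusted p = 0.12). Aars overlaps Exosc6 on the same strand by 1326 bases.

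In Teff against Tnaive the direction was mostly the reverse, with 3 of 13 higher (Aars, Vars and Wars), 8 lower and a median of -0.13 (-0.21 after a shift to a common median). Cars had the largest difference of the lower ones (-0.49 ± 0.08, adjusted p = 1.3e-05), with means of 10.37 ± 0.10 in Tnaive and 9.89 ± 0.02 in Teff. Vars and Wars were each higher in both comparisons, by 0.29 ± 0.04 in persistent cells for both and by 0.17 ± 0.06 and 0.16 ± 0.06 in Teff, but neither passed in Teff after a shift to a common median (adjusted p = 0.26 and 0.24), which left 1 higher and 8 lower. Of the synthetases with CARE letters, Gars, Aars, Tars and Yars were higher in persistent cells and Iars did not pass the test (0.06 ± 0.04, adjusted p = 0.21).

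Other genes of tRNA charging showed whether these changes ran through the whole system. Of 10 further cytosolic synthetase subunits and scaffold proteins, 7 were higher and 0 lower in persistent cells (median 0.25), and 2 were higher and 5 lower in Teff (median -0.13). Of 17 mitochondrial synthetases, 4 were higher and 10 lower in persistent cells (median -0.20), and 0 were higher and 10 lower in Teff (median -0.29). Ears2 and Tars2, the 2 largest decreases and named after their values were seen, gave -0.96 ± 0.08 (adjusted p = 1.4e-09) and -0.72 ± 0.04 (adjusted p = 3.4e-12) in persistent cells. Cytosolic Tars was higher by 0.19 ± 0.04 (adjusted p = 0.00018) in the same cells.

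**Figure D4:**
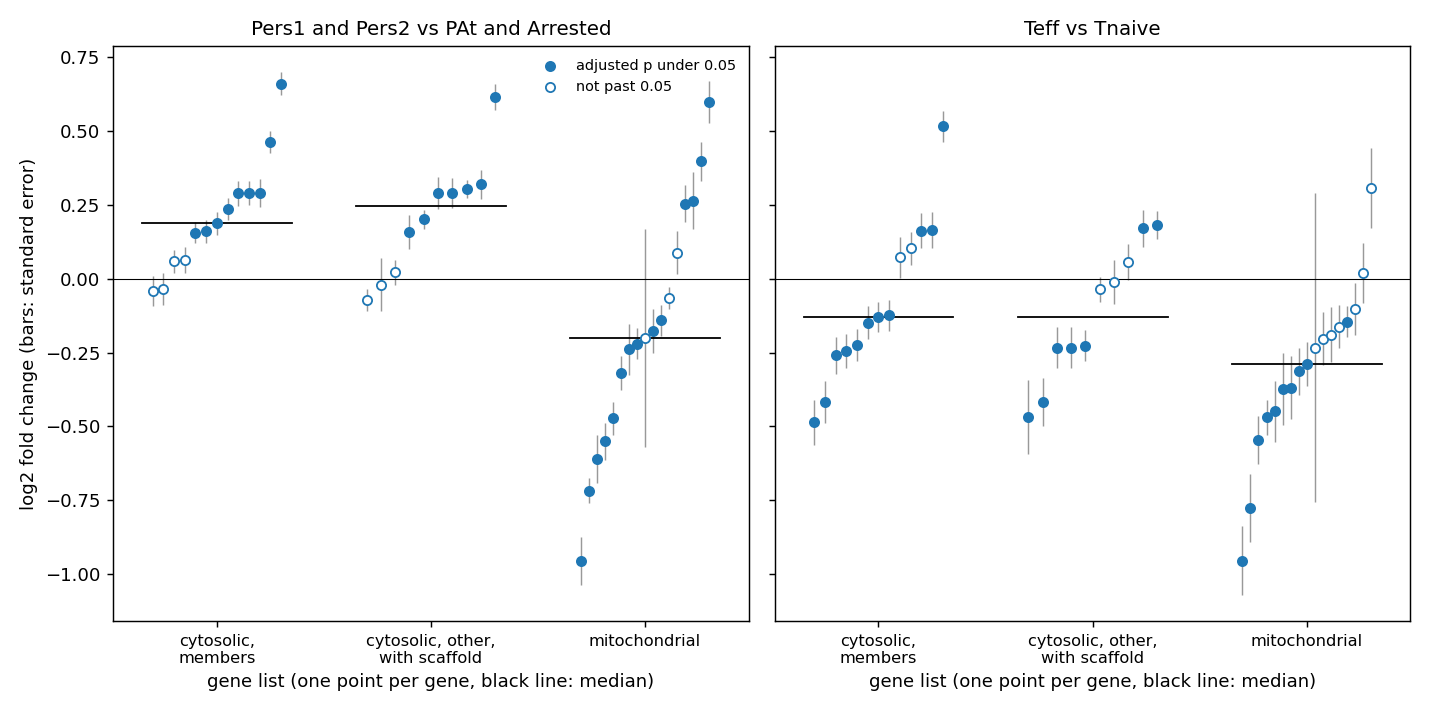
Log2 fold change with standard error for the 13 cytosolic tRNA synthetase members, 10 further cytosolic synthetase and scaffold genes and 17 mitochondrial synthetases, in both comparisons. Filled points passed an adjusted p of 0.05. The medians (black lines) are 0.19, 0.25 and -0.20 in persistent cells and -0.13, -0.13 and -0.29 in Teff.

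The difference between the 2 shifts was tested for each member in the same model, as persistent against PAt and Arrested minus Teff against Tnaive. Slc7a5 was the 1 member called, with a difference of 1.05 ± 0.11 (adjusted p = 1.1e-07), beside 1.52% of all genes called higher, and none was called lower, beside 6.9%. With any fold, 23 members had a larger shift in persistent cells and 5 a smaller one, beside 23.2% and 25.5% of all genes, and the median difference was 0.28 (-0.01 for all tested genes). All 8 serine and one-carbon enzymes and 10 of 13 cytosolic synthetases were among the 23. The 5 with a smaller shift were Sesn2 (-0.997 ± 0.13, adjusted p = 1.4e-06), Slc1a4 (-0.55 ± 0.14), Ddit4 (-0.39 ± 0.13), Slc1a5 (-0.28 ± 0.06) and Slc38a1 (-0.26 ± 0.07). The difference of Slc7a5 was 0.98, and so not called, without Arrested replicate 3, which held the lowest of the 3 Arrested values. That of Sesn2 was -1.05 without Teff replicate 2 and was called then. Atf4 (-0.05 ± 0.08, adjusted p = 0.66) and Slc38a2 (0.04 ± 0.11, adjusted p = 0.81) had no difference between the shifts past the test.

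Persistent cells were next set against Teff, the activated cells without Foxp3, and these values share libraries with the comparisons above. Asns and Shmt1 were called higher, 2 of 41 beside 4.28% of all genes, and none was called lower, beside 4.03%. With any fold, 23 were higher and 7 lower, beside 29.8% and 28.9%. The 7 lower were Atf4, Ddit3, Trib3, Slc7a6, Slc38a1, Slc38a2 and Slc1a4, which are stress genes and transporters, and no serine, proline or synthetase gene was among them. Slc7a5 was higher in persistent cells than in Teff by 0.82 ± 0.08 (adjusted p = 1.3e-08).

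PAt and Arrested were also compared with Tnaive and with Teff. Against Tnaive, Sesn2 was the 1 member called higher, beside 6.63% of all genes, and none was called lower, beside 1.27%. With any fold, 14 were higher and 15 lower, beside 26.9% and 23.8%, and 9 of the 15 lower were cytosolic synthetases. Against Teff none was called in either direction, beside 2.84% higher and 4.04% lower of all genes, and with any fold 14 were higher and 10 lower, beside 24.8% and 27.9%. The largest of these differences was that of Slc38a1 (-0.85 ± 0.05, adjusted p = 2.8e-12), followed by Psat1 (-0.65 ± 0.06, adjusted p = 6.3e-09). The count of 14 fell to 9 without Teff replicate 1.

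Within the pairs of Timer populations few members differed. Between Pers2 and Pers1 none was called, beside 0.144% higher and 0.0455% lower of all genes, and with any fold 1 was higher and 7 lower, beside 6.02% and 4.56%. The higher one was Sesn2 (0.58 ± 0.10, adjusted p = 0.00098). The 7 lower ones were 6 cytosolic synthetases (Gars, Iars, Nars, Sars, Tars and Wars) and Slc38a1, with Tars at -0.29 ± 0.05 (adjusted p = 0.0013) and Sars at -0.22 ± 0.05 (adjusted p = 0.0091). Tars values were 11.63, 11.53 and 11.66 in Pers1 and 11.34, 11.22 and 11.37 in Pers2. The summed level of the macrophage genes, Itgam among them, was also higher in Pers1 than in Pers2, at 9.4 to 9.6 against 8.6 to 8.8. Whether this bears on the result was not tested. The count of 7 fell to 2 without Pers1 replicate 1 or 3, to 3 without Pers2 replicate 2 and to 4 without Pers1 replicate 2 or Pers2 replicate 3.

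Between Arrested and PAt none was called, beside 0.0455% higher and 0.0758% lower of all genes. With any fold, Slc1a4 was higher (0.47 ± 0.12, adjusted p = 0.018), and Mthfd1l (-0.20 ± 0.05, adjusted p = 0.032) and Aldh18a1 (-0.20 ± 0.05, adjusted p = 0.029) were lower, beside 2.07% and 2.97% of all genes. Asns values did not overlap between PAt and Arrested, but the difference missed the threshold (-0.49 ± 0.15, adjusted p = 0.073). With the replicate number as a block, the count of lower members was 4 in place of 2. The higher call was lost without PAt replicate 2 or 3 or Arrested replicate 2, and both lower ones without PAt replicate 1 or 2 or Arrested replicate 2.

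Genes of Atf4 activation and of mTORC1 were taken from 2 further lists. Of 11 eIF2 alpha kinases, phosphatase subunits and Atf4 partners, 7 were higher and 3 lower in persistent cells (median 0.24), and 5 were higher and 2 lower in Teff (median 0.08). Atf3, a stress-induced partner, was the single called one, higher in Teff by 2.09 ± 0.19 (adjusted p = 4.3e-09), with means of 6.38 in Teff and 4.28 to 4.72 elsewhere. The summed levels of dendritic, CD8 and NK cell genes given above were highest in the same Teff libraries. The part of such cells in the Atf3 value was not tested. Of 17 genes of mTORC1 and its amino acid sensing, 4 were higher and 11 lower in persistent cells (median -0.35), and 2 were higher and 7 lower in Teff (median -0.08). Rragd, a Rag GTPase that brings mTORC1 to lysosomes, was called lower in both comparisons (-1.15 ± 0.07, adjusted p = 1.2e-11, and -1.25 ± 0.10, adjusted p = 1.3e-09).

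Myc, a factor known to induce amino acid transporters and serine enzymes in activated T cells, was 3.21 times lower in persistent cells than in PAt and Arrested (log2 fold change -1.68 ± 0.05) and 3.51 times lower in Teff than in Tnaive. The means were 12.39 in Tnaive, 12.51 in PAt, 12.17 in Arrested, 10.58 in Teff, 10.52 in Pers1 and 10.80 in Pers2. Myc mRNA was low in the persistent populations, where Phgdh, Psat1 and Psph were highest, and also low in Teff, where Shmt2, Mthfd1 and Mthfd1l were lowest. These are mRNA levels only, and the part of Myc in the member values was not tested.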

How the data were processed

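RNA-seq of 18 libraries (6 populations, 3 replicates) was used, and no column was left out. The authors prepared stranded mRNA libraries and sequenced paired-end reads of 100 bp. Per the submitters' processing notes they used CASAVA 1.8.2, FastQC 0.11.2, TopHat2 2.0.9 on mm10 and DESeq2. The counting tool, the annotation and the use of strand are not given in the sources used here. The table the authors deposited holds log2 normalised counts (-0.02 to 18.89, no whole numbers). Their form, inferred from the values, is that of a regularised log, which shrinks differences of poorly covered genes. Depth per library is unknown.

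One linear model with 6 population means was fitted to the log2 values as deposited with limma 3.58.1 in R 4.3.3 (trended empirical Bayes, 12 residual degrees of freedom). Of 15402 genes, 13190 with a mean of at least 3 were tested and 2212 left out. The script was tested on simulated data. Thresholds were an adjusted p under 0.05 and, for a call, an absolute log2 fold change over 1. Persistent and PAt/Arrested values are means of 2 population means. Summed marker levels are log2 of the sum of the normalised counts. No independent test of the members as a group was made: members and gene lists were chosen with earlier results of these data known. Any member could be named, with values per library for those called in the first 2 comparisons and Atf4. Genes of other lists were named when called there, except for 1 result that is not reported here, and Myc as a reference. Ears2, Tars2 and Slc7a10 were named after their values were seen. Gene coordinates are from GENCODE vM21 (GRCm38).

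Replicate numbers were taken to pair populations, since the design says that all populations were sorted from the same animals. Deviations from population means correlated at a median of 0.17 over the 45 same-number pairs (-0.21 to 0.44) and -0.06 over the 90 others. Alternatives were another filter, no filter, no trend, a common median, quantile normalization, a fold limit of 1.5, the populations compared alone, the replicate block and leaving out each library. Promoter sequences are from RefSeq (GRCm38.p6). No promoter was given for 10 listed genes.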

Additional observations from a re-analysis of the deposited data

Results flagged for a closer look

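For 11 members, the shift from PAt and Arrested to persistent cells and that from Tnaive to Teff were of opposite sign. Each shift passed an adjusted p of 0.05 (limma, Benjamini-Hochberg over 13190 genes). The difference between the shifts passed as well, which follows almost wholly from this choice of members. Its p-values below are therefore no separate support. Groups of 3 libraries are too small for a check of outlying samples.

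Slc7a5, the large neutral amino acid exchanger, had the largest difference of these members, 1.05 on the log2 scale (0.35 in persistent cells and -0.70 in Teff, adjusted p = 1.1e-07). Of the one-carbon enzymes, Shmt1 differed by 0.90 (adjusted p = 2.8e-07), Shmt2 by 0.76 (adjusted p = 8e-08), Mthfd1 by 0.87 (adjusted p = 3.2e-07) and Mthfd1l by 0.87 (adjusted p = 7.9e-10). The shift of Shmt2 in persistent cells did not pass the test after a shift to a common median or quantile normalization. Psat1 and Phgdh, the first enzymes of serine synthesis, rose in both shifts and are not among the 11.

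Of the tRNA synthetases, Tars differed by 0.41 (adjusted p = 2.8e-05), Eprs by 0.36 (adjusted p = 8.8e-05), Nars by 0.31 (adjusted p = 0.00064) and Sars by 0.29 (adjusted p = 7e-04). The cationic transporter Slc7a1 differed by 0.43 (adjusted p = 0.00041), but its shift in persistent cells did not pass after either other scaling. Slc1a5, the glutamine carrier, was the 1 member with the opposite pattern, at -0.28 (adjusted p = 0.00064), with -0.10 in persistent cells and 0.18 in Teff, where it did not pass after a shift to a common median (0.10, adjusted p = 0.087). Summed dendritic cell genes were 10.6 to 11.3 in Teff and 6.4 to 6.6 in Tnaive, and their part in these differences was not tested.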

How the results depend on the processing

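Members called higher in persistent cells against PAt and Arrested numbered 3 on the deposited values and under each other filter, model and scaling except the common median, which left 2 without Gpt2, and a fold limit of 1.5. With that lower limit the counts were 8 higher in persistent cells, 4 higher and 3 lower in Teff, 10 higher against Teff, 3 higher for PAt and Arrested against Tnaive, 2 lower against Teff, and 8 higher and 1 lower for the difference of shifts. The share of all tested genes at this limit was not computed, so these counts are not read as a trait of the members. Quantile normalization left 1 member called in Teff and 2 for the difference of shifts. Pers2 against Pers1 had 4 lower at any fold without a trend. Arrested against PAt had 0 higher when the mean was at least 6 or only these populations were fitted, and 4 lower with the replicate block, 1 without a trend and 0 with a common median or only these populations. The replicate block changed no other count by over 1.5 times, and no call of a member in the first 2 comparisons.

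Leaving out 1 library gave 2 to 3 called and 26 to 28 higher and 4 to 6 lower at any fold in persistent cells, 9 to 16 higher for PAt and Arrested against Teff, 2 to 5 lower for Pers2 against Pers1, 0 to 1 higher and 0 to 2 lower for Arrested against PAt, and 0 to 1 called in each direction for the difference of shifts. The 1 lower was Sesn2 (-1.05 to -1.004) without Tnaive replicate 1 or 3, Teff replicate 2 or 3, PAt replicate 3, Arrested replicate 2 or 3, Pers1 replicate 1 or 3, or Pers2 replicate 1.

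No member past an adjusted p of 0.05 changed sign. Those that did were near 0. With a common median, persistent cells gave -0.0023 for Iars, -0.0062 for Lars, -0.0302 for Pycr1 and -0.0421 for Slc7a6, and Teff gave -0.0103 for Pycr1 and -0.01 for Yars. With quantile normalization, persistent cells gave -0.0107 for Iars, -0.0136 for Lars, 0.0069 for Slc1a4 and -0.0481 for Slc7a6, and Teff gave -0.0759 for Eif4ebp1 and -0.0112 for Pycr1. Leaving out 1 library gave -0.0719 to 0.0046 for Cars (above 0 without Arrested replicate 2), -0.0751 to 0.0057 for Slc1a4 (Arrested replicate 2) and -0.0013 to 0.0994 for Pycr1 (below 0 without Arrested replicate 3) in persistent cells. In Teff it gave -0.0955 to 0.0687 for Psph (above 0 without Tnaive replicate 1 or Teff replicate 3) and -0.0528 to 0.0208 for Trib3 (Tnaive replicate 1 or Teff replicate 2). The cause was not tested. A shift to a common median moved the contrasts by 0.07 in persistent cells and 0.08 in Teff. Depth is unknown and the transform shrinks low genes, so that little can be read from Chac1 and Pycr1.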

Other observations

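Enzymes that break down or rebuild other amino acids moved in both directions. Of 15 genes of glutamine, branched-chain amino acid and urea cycle metabolism, 7 were higher and 3 lower in persistent cells than in PAt and Arrested, with a median log2 fold change of 0.12, and 5 were higher and 4 lower in Teff than in Tnaive, with a median of -0.05. Of all tested genes, 35.9% were higher and 35.1% lower in persistent cells, and 31.3% and 27.7% in Teff. The 3 called genes were all higher in Teff: Bcat1, the cytosolic branched-chain aminotransferase (1.69 ± 0.13, limma adjusted p = 1.9e-10), Prodh, which starts proline breakdown (1.09 ± 0.14, adjusted p = 1.1e-06), and Odc1, the entry enzyme of polyamine synthesis (1.04 ± 0.15, adjusted p = 4.2e-06). In persistent cells Bcat1 was higher by 0.84 ± 0.09 (adjusted p = 3.2e-08) and Odc1 by 0.60 ± 0.11 (adjusted p = 3.5e-05), while Prodh gave -0.09 ± 0.10 (adjusted p = 0.44). Mean Bcat1 values were 5.80 in Tnaive, 7.49 in Teff, 8.07 in PAt, 7.67 in Arrested, 8.69 in Pers1 and 8.74 in Pers2.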
